A study of Caenorhabditis elegans with 16 samples.

Results

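The genes described here are the *C. elegans* metallothioneins *mtl-1* and *mtl-2*, the cadmium-responsive *cdr* genes and the nuclear metal-response gene *numr-1*. They were chosen by name, as the rows of the deposited gene count table named *mtl-1*, *mtl-2*, *cdr-1* to *cdr-7* or *numr-1*. Of these 10 names, 8 were found among the 19122 genes of the table, and no row was named *cdr-5* or *numr-1*. A gene listed under another name would not have been found by this rule. Of the 8, 7 passed the filter on low counts and *cdr-3* did not.

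Poly(A)-selected, strand-specific RNA-seq was made from whole animals at the L4 larval stage, in 16 samples, with 4 independently grown populations per genotype. The 3 transgenic genotypes were *mgTi21* (SKN-1t[NNNN], strain GR3105), *mgTi42* (SKN-1t[NDNN], strain NJL2492) and *mgTi41* (SKN-1t[DNDD], strain NJL2494), each carrying *unc-119(ed3)* III in the background, and the control was the wild type strain N2. SKN-1t is the transcription factor SKN-1 cut short at its N-terminus, made from a single-copy insertion under the ubiquitous *rpl-28* promoter. The letters give asparagine (N) or aspartate (D) at 4 residues. Asparagines of SKN-1A that carried a sugar chain in the endoplasmic reticulum are edited to aspartate after its release, whereas SKN-1C is not edited, so the series asks how the number of edited residues changes the genes that SKN-1 controls. The strains are called by these letters, NNNN, NDNN and DNDD, as the sample descriptions do. Each transgene is represented by 1 insertion line, the wild type carries neither the transgene nor *unc-119(ed3)*, and all strains kept their endogenous *skn-1*. The methods name no metal added to the plates, so the levels below are those of unexposed animals.

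Metallothioneins are small cysteine-rich proteins that bind zinc, copper and cadmium. In *C. elegans* they are made mainly in the intestine, where *mtl-2* is strongly induced by cadmium, while *mtl-1* is also active in the pharynx without added metal and is a known target of the insulin-regulated factor DAF-16. The CDR proteins are a nematode family related to glutathione S-transferases, and *cdr-1* is the member best known for its induction by cadmium in intestinal cells. The glutathione and phytochelatin pathway is another route that protects worms from cadmium, and its first enzyme, GCS-1, is a textbook SKN-1 target.

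The libraries held 23806929 to 30457636 counted reads. Levels are given as CPM, the read counts of a gene scaled to library size by the TMM method, which corrects for differences in library composition, and as TPM, which also divides by gene length, where genes are compared with each other. A gene was called when its fold change was above 2 in either direction (a log2 fold change beyond 1) with an adjusted p under 0.01 (the primary cutoff), and a secondary cutoff of a fold change above 1.5 and an adjusted p under 0.05 is named where it is used. The *skn-1* row itself, which can hold reads of the transgene as well as of the endogenous gene, averaged 305 ± 25.6 CPM in NNNN, 283 ± 29.0 in NDNN, 238 ± 22.4 in DNDD and 121 ± 9.93 in the wild type (SD, n = 4 each).

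The genes lie on chromosome V in WBcel235, the build of the deposited counts. The metallothioneins are far apart, *mtl-1* (WBGene00003473) at chrV:6691371-6691863 and *mtl-2* (WBGene00003474) at chrV:14018270-14018673, both on the minus strand with 2 exons and 1 transcript. The gene *cdr-1* (WBGene00000412) stands alone at chrV:15921309-15922820 on the plus strand. The other 5 genes named *cdr* in the table form 1 cluster of 10012 bases, chrV:12407366-12417377, all on the minus strand. Their order is *cdr-4*, *cdr-7*, *cdr-6*, *cdr-2*, *cdr-3*, with the gene named *hrg-2*, known as heme-responsive, between *cdr-4* and *cdr-7*. Whether *hrg-2* is the gene missing under the name *cdr-5* could not be settled from the annotation used, so it is treated as a neighbour. No member overlaps another annotated gene.

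In unexposed L4 animals *mtl-2* was by far the most abundant of these transcripts per length. It stood at 1432 ± 317 TPM in the wild type, and *mtl-1* at 6.88 ± 2.80 TPM (SD, n = 4). Among the *cdr* genes of the wild type, *cdr-6* had the highest level at 135 ± 8.61 TPM, *cdr-2* had 50.1 ± 15.5, *cdr-4* had 31.1 ± 3.42, *cdr-7* had 5.98 ± 0.556 and *cdr-1* had 5.12 ± 1.32 TPM. In that order the neighbours *cdr-7* and *cdr-1* differed by less than their spread.

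Against the wild type, *mtl-2* was lower in all 3 strains and *mtl-1* in NNNN, *cdr-7* was higher in NNNN and NDNN, and *cdr-4* was higher in NDNN and DNDD. In NNNN 3 of the 7 members tested were called, *cdr-7* higher and *mtl-1* and *mtl-2* lower, where 13.1% of all 14192 genes tested were called (7.03% higher, 6.12% lower). In NDNN 3 of 7 were called, *cdr-4* and *cdr-7* higher and *mtl-2* lower, against 10.2% of 14310 genes (6.85% higher, 3.34% lower). In DNDD 2 of 7 were called, *cdr-4* higher and *mtl-2* lower, against 6.79% of 14400 genes (3.44% higher, 3.35% lower). At the secondary cutoff the counts were 3 in NNNN, 4 in NDNN and 3 in DNDD, where 26.6%, 24.0% and 22.6% of all genes passed. With so few members these shares say little about the group as a whole. The median log2 fold change over the 7 members was -0.30 in NNNN, -0.24 in NDNN and -0.45 in DNDD, where the median over all genes tested was 0.14, 0.08 and 0.04. The 3 comparisons share the wild type samples and are not independent of each other.

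The largest decreases among the members were those of the metallothioneins in animals expressing the unedited form. The level of *mtl-2* was 123, 95.5, 142.1 and 168 CPM in the 4 NNNN samples, 226, 148, 277 and 243 CPM in NDNN, 185, 229, 304 and 226 CPM in DNDD, and 460, 381, 553 and 566 CPM in the wild type. Every sample of every transgenic strain lay below the lowest wild type sample. The means were 132 ± 30.4 CPM in NNNN, 224 ± 54.6 in NDNN, 236 ± 49.8 in DNDD and 490 ± 86.4 in the wild type (SD, n = 4 each). In NNNN the level was 0.286 times that of the wild type, a log2 fold change of -1.81 (SE 0.203, adjusted p = 0.000272 by edgeR's quasi-likelihood test, Benjamini-Hochberg adjusted over all genes tested). In the same test *mtl-2* fell by 1.06 on the log2 scale in NDNN (SE 0.202, adjusted p = 0.00413) and by 1.07 in DNDD (SE 0.184, adjusted p = 0.00348).

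The call of *mtl-2* in NNNN held in all 13 alternatives tried, with log2 fold changes between -1.99 and -1.76. The other 2 calls sit close to the cutoff. In NDNN the call was lost in 5 of 8 fits that left out 1 library (NDNN replicates 1, 2 and 4, wild type replicates 3 and 4), with log2 fold changes between -1.23 and -0.91, and in DNDD it was lost in 5 of 8 (DNDD replicates 1, 2 and 4, wild type replicates 3 and 4), between -1.19 and -0.94.

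**Figure D1:**
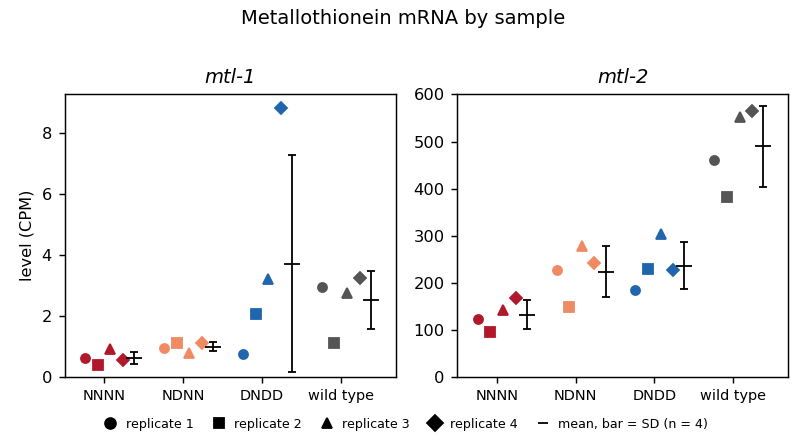
Levels of *mtl-1* and *mtl-2* mRNA in CPM (vertical axis, linear, from 0) in each of the 16 samples, by genotype; point shapes give the replicate number, and the dash with its bar gives the mean and SD of 4 samples. The 12 transgenic samples of *mtl-2* all lie below the lowest wild type sample at 381 CPM, while 1 DNDD sample of *mtl-1* stands at 8.83 CPM, above all others.

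Its paralog *mtl-1* was near the limit of what these libraries can resolve, with 10 to 266 reads per sample. It had 0.618, 0.394, 0.898 and 0.552 CPM in NNNN, 0.950, 1.09, 0.787 and 1.11 CPM in NDNN, 0.750, 2.04, 3.21 and 8.83 CPM in DNDD, and 2.94, 1.12, 2.74 and 3.24 CPM in the wild type. The NNNN and NDNN samples all lay below every wild type sample, whereas the DNDD samples ran from below to above the wild type range. In the edgeR test *mtl-1* fell by 1.93 on the log2 scale in NNNN (SE 0.398, adjusted p = 0.00558, a level of 0.262 times the wild type). In NDNN the estimate was -1.28 (SE 0.335, adjusted p = 0.0183), which passed the secondary cutoff only, while DESeq2 called it (-1.33, adjusted p = 0.00234). In DNDD it was 0.54 (SE 0.665, 95% interval -0.76 to 1.85, adjusted p = 0.55). Without DNDD replicate 4, the sample at 8.83 CPM, that estimate was -0.34. The call in NNNN was lost in 6 of 8 fits that left out 1 library (NNNN replicates 1, 2 and 4, wild type replicates 1, 3 and 4), with the adjusted p never above 0.017, and in 1 fit of all 16 samples (-2.05, adjusted p = 0.0121).

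The samples of DNDD that were high for *mtl-1* were also high for other genes. Taken in replicate order, the summed level of 6 vitellogenin genes, which encode yolk proteins made in the adult intestine, was 141.8, 305, 1644 and 3744 CPM in the DNDD samples, and the samples stood in the same order for *mtl-1*. The summed level of 6 oocyte markers was 31.1, 20.5, 116 and 279 CPM, and that of 7 sperm markers 63.4, 37.7, 181 and 219 CPM, in the same samples. The oocyte sums were 8.58, 7.41, 16.4 and 67.8 CPM in NNNN and 7.26, 7.15, 33.0 and 53.3 in NDNN. The sperm sums were 15.8, 13.6, 41.7 and 148 CPM in NNNN and 19.2, 17.1, 59.3 and 69.4 in NDNN. In the wild type the oocyte sums were 8.89, 14.9, 78.0 and 53.5 CPM and the sperm sums 19.7, 21.3, 67.9 and 55.8. In every genotype both sums were thus higher in replicates 3 and 4 than in replicates 1 and 2. The summed level of 3 pharynx muscle markers was 8.78, 9.78, 51.0 and 88.6 CPM in the DNDD samples, again in the sample order of *mtl-1*. Over the 3 pharynx markers the median log2 fold change against the wild type was -1.71 in NNNN, -1.07 in NDNN and -0.18 in DNDD, with 0 called at the primary cutoff, and their sums ranged from 6.35 to 27.0 CPM in NNNN, from 6.34 to 58.9 in NDNN and from 17.6 to 85.0 in the wild type. In the wild type the vitellogenin sums were 4249, 11272, 23316 and 12514 CPM. In NNNN they were 95.9, 111, 103 and 227 CPM, and in NDNN 159, 109, 857 and 287 CPM. In none of these genotypes did the samples stand in the order of *mtl-1*, and the highest NDNN sum was in the sample lowest for *mtl-1*. Of the 6 vitellogenin genes, 6 were called lower in NNNN, 5 in NDNN and 3 in DNDD. Over all genes tested, 6.12%, 3.34% and 3.35% were called lower. The part of these genes, or of the animals' exact stage, in the levels of *mtl-1* was not tested.

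Some markers of the intestine, where metallothioneins are expressed, were also lower in each strain. Of 9 intestine markers, 3 were called lower in NNNN, 4 in NDNN and 5 in DNDD, where 6.12%, 3.34% and 3.35% of all genes were called lower, and 0 were called higher in any strain. The median log2 fold change of the list was -0.70, -0.78 and -1.12 in that order of strains. The summed level of the list ranged from 9297 to 11341 CPM in NNNN, from 9177 to 10558 in NDNN, from 8595 to 10615 in DNDD and from 15247 to 19840 in the wild type, and no marker was at 0 in all samples. The intestine sums of the 3 strains overlapped each other. In whole animals, a smaller share of intestinal RNA and lower levels of these genes within the intestine cannot be told apart. The part of the intestine in the fall of *mtl-2* was not tested.

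Of 6 regulators of metal, stress or intestinal genes that were listed, 2 were called lower in NNNN, 2 in NDNN and 1 in DNDD, and 0 higher. The gene *elt-7*, which encodes an intestinal GATA factor, fell by 1.49 on the log2 scale in NNNN (SE 0.146, adjusted p = 0.000142) and by 1.16 in NDNN (SE 0.188, adjusted p = 0.00192), and its estimate in DNDD was -0.65 (SE 0.180, adjusted p = 0.0283), past the secondary cutoff. The estimates of *elt-2*, the main intestinal GATA factor, which is needed for metallothionein transcription, were -0.53, -0.51 and -0.47 in NNNN, NDNN and DNDD, each past an adjusted p of 0.01 but short of the fold cutoff. The transcript of *daf-16* itself had estimates of -0.53, -0.47 and -0.45, and *mdt-15*, a Mediator subunit, of -0.45, -0.39 and -0.48. The heat shock factor gene *hsf-1* had positive estimates of 0.25, 0.35 and 0.69, the last past the secondary cutoff (adjusted p = 0.00247). The sixth regulator, *hizr-1*, is described with the zinc genes. Of 7 genes known to respond to DAF-16, 2 were called lower and 0 higher in NNNN, and 1 was called higher and 0 lower in NDNN and in DNDD. The one called higher was *lys-7*, which encodes a lysozyme, with log2 fold changes of 2.23 (SE 0.338) in NDNN and 2.72 (SE 0.420) in DNDD. The median over the 7 was -0.95 in NNNN, -0.86 in NDNN and 0.23 in DNDD. Their estimates ran from -3.23 to 1.70, from -1.69 to 2.23 and from -0.70 to 2.72. Over all genes tested, 7.03% were called higher and 6.12% lower in NNNN, 6.85% and 3.34% in NDNN, and 3.44% and 3.35% in DNDD. The gene *dod-3*, another gene downstream of DAF-16, had 8.21, 15.3, 45.6 and 46.9 CPM in DNDD and 24.0, 45.3, 16.6 and 12.5 CPM in the wild type. As with *mtl-1*, its DNDD samples covered a range of several fold and overlapped the wild type.

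In the *cdr* family the responses differed from gene to gene. The level of *cdr-4* (WBGene00010470, chrV:12407366-12408625, 6 exons) was 44.0, 43.2, 33.7 and 30.7 CPM in NNNN, 52.1, 66.2, 40.7 and 45.9 CPM in NDNN, 69.2, 78.7, 47.5 and 46.7 CPM in DNDD, and 28.1, 25.1, 25.4 and 28.6 CPM in the wild type. All transgenic samples were above the highest wild type sample, and within each transgenic strain replicates 1 and 2 were above replicates 3 and 4. In the edgeR test *cdr-4* rose by 1.16 on the log2 scale in DNDD (SE 0.182, adjusted p = 0.00223) and by 1.01 in NDNN (SE 0.150, adjusted p = 0.00132), and its estimate in NNNN was 0.58 (SE 0.123, adjusted p = 0.00655), a fold change of 1.49 that lies just under the secondary fold cutoff. The call in NDNN sits on the cutoff: with the replicate number as a block its log2 fold change was 0.98 (adjusted p = 0.00453), and it was lost in all 5 alternatives that kept every library (log2 fold changes of 0.91 to 0.98, DESeq2 included) and in 4 of 8 fits that left out 1 library (NDNN replicates 1 and 2, wild type replicates 2 and 3). In DNDD the call was lost in 1 of 8, without wild type replicate 2 (log2 fold change 1.12, adjusted p = 0.0114).

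Its cluster neighbour *cdr-7* (WBGene00010472, chrV:12410879-12412113, 2 transcripts) had the opposite order of mean levels among the transgenic strains. It had 17.4, 17.5, 14.7 and 8.71 CPM in NNNN, 15.1, 17.2, 8.28 and 8.69 CPM in NDNN, 11.5, 13.4, 5.49 and 5.24 CPM in DNDD, and 6.29, 5.82, 6.09 and 5.77 CPM in the wild type. All samples of NNNN and NDNN lay above the wild type, and in DNDD replicates 1 and 2 lay above it and replicates 3 and 4 below it. The wild type samples were close together, with an SD of 0.243 CPM, against 4.13 to 4.50 CPM in the transgenic strains. In the edgeR test *cdr-7* rose by 1.36 on the log2 scale in NNNN (SE 0.211, adjusted p = 0.00137, a fold change of 2.57) and by 1.11 in NDNN (SE 0.252, adjusted p = 0.00965), and its estimate in DNDD was 0.56 (SE 0.319, 95% interval -0.07 to 1.18, adjusted p = 0.2). With the replicate block the call in NDNN was lost (log2 fold change 1.04, adjusted p = 0.0152). It was also lost with RLE scaling (adjusted p = 0.0132), without the filter on low counts (0.0136), in 1 fit of all 16 samples (0.0292) and in 6 of 8 fits without 1 library (NDNN replicates 1 and 2 and each wild type replicate). The call in NNNN was lost in 1 of 8, without wild type replicate 2 (log2 fold change 1.29, adjusted p = 0.0104).

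**Figure D2:**
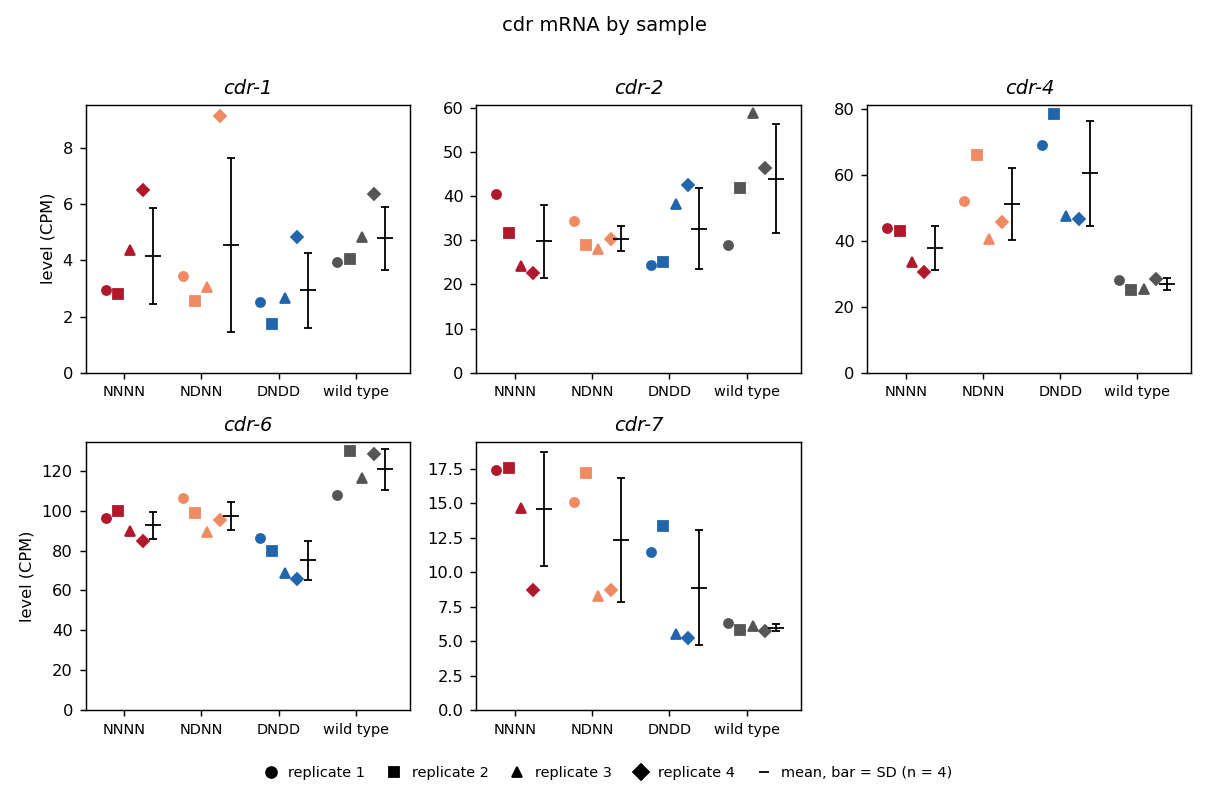
Levels of the 5 tested *cdr* genes in CPM (vertical axes, linear, from 0, a scale of its own per gene) in each sample by genotype; shapes give the replicate number and the dash with its bar the mean and SD of 4 samples. All transgenic samples of *cdr-4* lie above the wild type samples, whose highest is 28.6 CPM, and the *cdr-7* samples of each strain spread over a wider range than those of the wild type.

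The remaining *cdr* genes were level with the wild type or below it. The most abundant, *cdr-6* (WBGene00010471, chrV:12412487-12413701), averaged 92.8 ± 6.77 CPM in NNNN, 97.5 ± 7.08 in NDNN, 75.1 ± 9.58 in DNDD and 121 ± 10.3 in the wild type (SD, n = 4 each), and no transgenic sample reached the lowest wild type sample. In DNDD it fell by 0.70 on the log2 scale (SE 0.118, adjusted p = 0.00315 in the edgeR test), which passed the secondary cutoff. Its estimates in NNNN and NDNN were -0.30 (SE 0.0828, adjusted p = 0.0215) and -0.24 (SE 0.0898, adjusted p = 0.0742), neither past a fold cutoff.

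For *cdr-2* (WBGene00008296, chrV:12414656-12415709) the means were 29.7 ± 8.18 CPM in NNNN, 30.4 ± 2.80 in NDNN, 32.6 ± 9.18 in DNDD and 44.0 ± 12.4 in the wild type. The ranges overlapped in every comparison, and the estimates against the wild type of -0.49, -0.46 and -0.45 had adjusted p-values of 0.151, 0.097 and 0.197. The classical cadmium-induced member *cdr-1* averaged 4.15 ± 1.72 CPM in NNNN, 4.55 ± 3.09 in NDNN, 2.94 ± 1.34 in DNDD and 4.79 ± 1.12 in the wild type. Its estimates were -0.12 (95% interval -0.74 to 0.50) in NNNN, -0.01 (-0.80 to 0.78) in NDNN and -0.72 (-1.37 to -0.07, adjusted p = 0.123) in DNDD, where the block gave an adjusted p of 0.019 and so the secondary cutoff. Of these 3 intervals, the one in DNDD alone reaches past the primary fold cutoff. It leaves out 0, although the unadjusted p of the edgeR test there was 0.0592.

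The last *cdr* gene of the cluster, *cdr-3* (WBGene00008297, chrV:12416358-12417377), had 0 to 5 reads per sample and 0 in 9 of 16 samples, where a count of 0 allows up to 3 reads, or 0.0966 to 0.129 CPM. Any change of *cdr-3* was not detectable at this depth. The table has a row named *numr-2* (WBGene00017267), the near-identical neighbour of *numr-1*, which had 1 read in DNDD replicate 4, 1 in wild type replicate 4 and 0 in the other 14 samples. The annotation used here gives that identifier to *numr-1*, and reads of the 2 copies cannot be told apart with certainty, so no level of either is given.

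**Figure D3:**
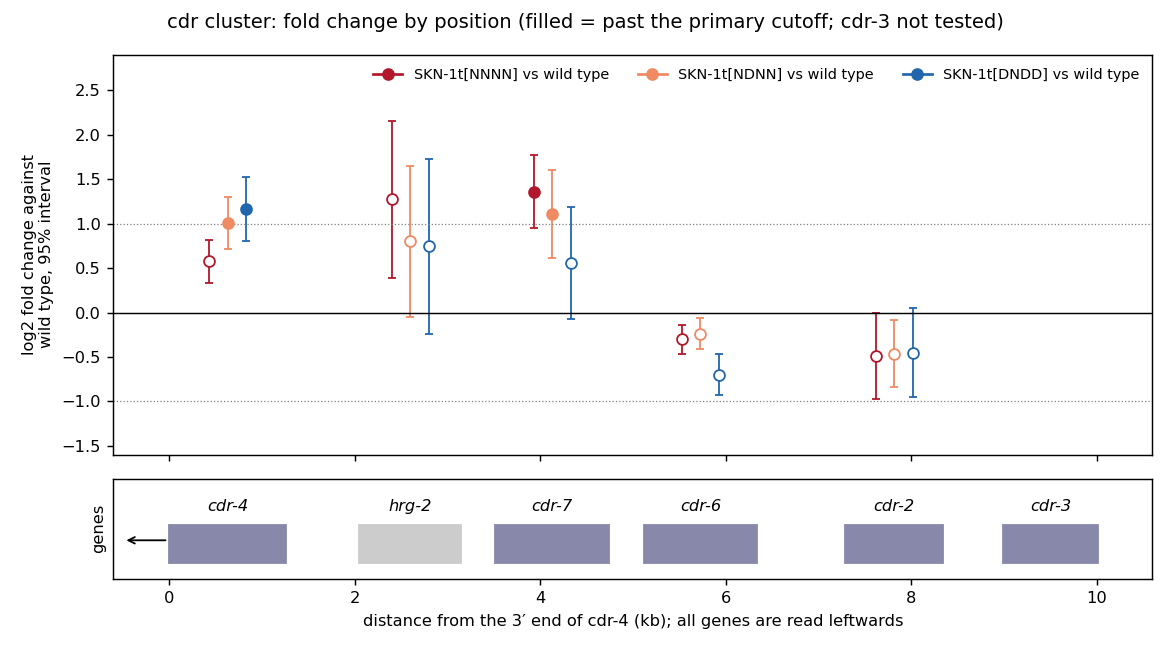
Log2 fold change against the wild type (upper panel, with 95% intervals of 1.96 SE) of the genes of the *cdr* cluster, placed by distance in kb from the 3′ end of *cdr-4* (horizontal axis, lower panel shows the gene bodies); filled points pass the primary cutoff. *cdr-4*, *hrg-2* and *cdr-7* have positive estimates in all 3 strains, and *cdr-6* and *cdr-2* negative ones.

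Along the cluster, the genes with positive estimates stood next to each other. The 3 genes at the *cdr-4* end, *cdr-4*, *hrg-2* and *cdr-7*, had positive estimates in all 3 strains, and the next 2, *cdr-6* and *cdr-2*, had negative ones in all 3. The heme-responsive *hrg-2* was itself low, with 0.82 ± 0.23 CPM in NNNN and 0.36 ± 0.20 CPM in the wild type (SD, n = 4), and was not called in any strain (log2 fold change 1.27, SE 0.45, adjusted p = 0.0551 in NNNN). Outside the cluster, within 10 kb, the nearest genes tested on either side, *K01D12.9* and *C54D10.3*, did not share 1 direction: *K01D12.9* fell by 1.79 in NNNN (SE 0.261, adjusted p = 0.00102), and *C54D10.3* had an estimate of 0.97 there (SE 0.403, adjusted p = 0.0925).

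Across the 16 samples, *cdr-4* and *cdr-7* were more closely correlated once the genotypes' means were subtracted. Pearson's r of their log2 CPM was 0.55 over all samples and 0.93 after subtraction of each genotype's mean. It is given as a description of 16 samples that share libraries and genotype. In each transgenic strain both genes were higher in replicates 1 and 2 than in replicates 3 and 4, and r within genotypes includes this split. For *cdr-6* and *cdr-4* r was -0.55 over all samples and 0.71 within genotypes, and for *cdr-6* and *cdr-7* it was -0.01 and 0.75. For the 2 metallothioneins r was 0.64 over all samples and 0.37 within genotypes, and for *mtl-2* and *cdr-7* it was -0.81 and -0.66.

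The 3 forms of SKN-1t were then compared with each other, in 1 fit of all 16 samples. At the primary cutoff 0 of 7 members were called in NDNN against NNNN (0.364% of 14850 genes tested), 0 in DNDD against NNNN (2.61%) and 0 in DNDD against NDNN (0.256%). In edgeR's quasi-likelihood test an unadjusted p under 0.05 was reached by 2, 4 and 2 of the 7 members in these pairs, and DESeq2 called 0, 1 and 0. The shares of all genes at these marks are not given here, so these counts cannot be set against a background. At the secondary cutoff 3 of 7 members were higher in DNDD than in NNNN and 0 lower, where 8.98% of all genes passed it (5.98% higher). These were *mtl-1*, *mtl-2* and *cdr-4*. In NDNN against NNNN 0 of 7 passed the secondary cutoff, against 0.741% of all genes.

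The difference was largest for *mtl-1*, with a log2 fold change of 2.59 in DNDD against NNNN (SE 0.59, adjusted p = 0.0108 in the edgeR test). With the replicate block it was 2.35 (adjusted p = 0.0068), which passed the primary cutoff, and so it did without DNDD replicate 1 (2.93, adjusted p = 0.00163). The samples overlapped, since DNDD replicate 1 at 0.750 CPM lay below NNNN replicate 3 at 0.898 CPM. For *mtl-2* the DNDD samples were all above the NNNN samples, by 0.85 on the log2 scale (SE 0.215, adjusted p = 0.0191, and 0.000793 with the block). For *cdr-4* they were also all above, by 0.69 (SE 0.188, adjusted p = 0.0269, and 0.00356 with the block). The estimate of *mtl-2* in NDNN against NNNN was of similar size, 0.78 (SE 0.215), with an adjusted p of 0.176 and of 0.0107 with the block, where it passed the secondary cutoff.

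Between DNDD and NDNN the estimate of *mtl-1* was 1.90 (95% interval 0.80 to 3.01, adjusted p = 0.11), and with the block it was 1.63 (adjusted p = 0.0371), past the secondary cutoff. No difference was shown there for *mtl-2*, with an estimate of 0.08 and a 95% interval of -0.34 to 0.50. For *cdr-7* the estimate was -0.70 in DNDD against NNNN (SE 0.330, adjusted p = 0.167, and 0.0191 with the block, past the secondary cutoff) and -0.23 in NDNN against NNNN (95% interval -0.88 to 0.41). All samples of *cdr-6* were lower in DNDD than in NDNN, by an estimate of -0.38 (SE 0.0999, adjusted p = 0.0758, and 0.0164 with the block), which is short of either fold cutoff. The order of mean levels was thus NNNN, NDNN, DNDD, wild type from low to high for *mtl-2*, and wild type, DNDD, NDNN, NNNN for *cdr-7*. For *mtl-2* the neighbours NDNN and DNDD did not differ beyond their spread. NNNN and NDNN samples of *mtl-2* overlapped (95.5 to 168 and 148 to 277 CPM), and their difference passed no cutoff in the main fit. For *cdr-7* no 2 neighbouring transgenic strains differed beyond their spread. The *cdr-7* samples of DNDD overlapped those of the wild type (5.24 to 13.4 and 5.77 to 6.29 CPM).

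**Figure D4:**
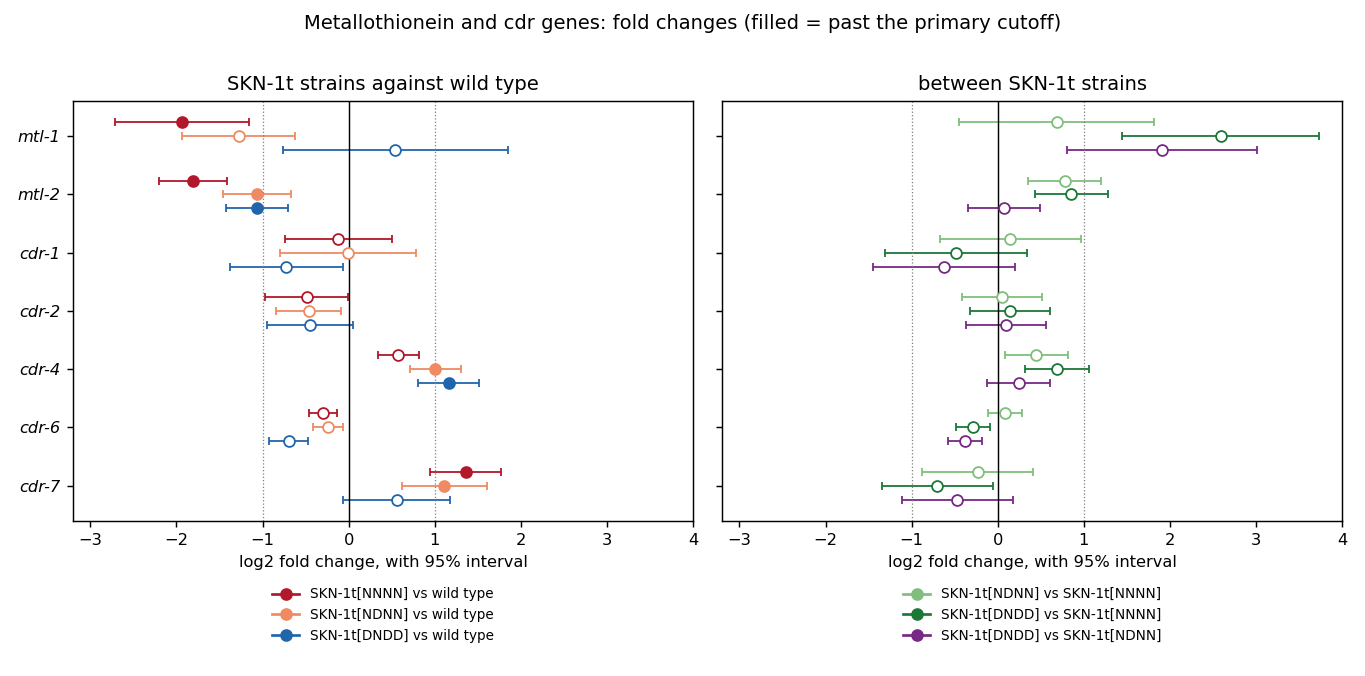
Log2 fold changes of the 7 tested members (horizontal axis, with 95% intervals of 1.96 SE) for each SKN-1t strain against the wild type (left) and between SKN-1t strains (right); filled points pass the primary cutoff and dotted lines mark a log2 fold change of 1 in either direction. Against the wild type, the metallothionein points lie left of 0 in all but DNDD for *mtl-1*, and between strains they lie right of 0. Those of *cdr-4* and *cdr-7* lie right of 0 against the wild type.

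Metallothioneins work beside zinc, iron, copper and heme transporters and beside the phytochelatin pathway, and 46 genes of these groups were listed. The list held 45 genes of the table, of which 43 were tested. In NNNN 5 were called higher and 8 lower, in NDNN 3 and 4, and in DNDD 2 and 9, with medians of -0.32, -0.31 and -0.43. Over all genes tested, 7.03% were called higher and 6.12% lower in NNNN, 6.85% and 3.34% in NDNN and 3.44% and 3.35% in DNDD, with medians of 0.14, 0.08 and 0.04. Of the 15 genes called in at least 1 strain, the 12 with the largest change are named here.

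Of 20 zinc genes tested, 2 were called higher and 2 lower in NNNN and in NDNN, and 1 higher and 2 lower in DNDD. Transcripts of *hizr-1*, the nuclear receptor that senses high zinc and activates *mtl-1* and *cdf-2*, were 6.18, 7.29, 5.91 and 4.85 CPM in NNNN, 5.12, 5.60, 5.65 and 5.40 CPM in NDNN, 3.79, 4.84, 4.81 and 4.15 CPM in DNDD, and 10.96, 14.8, 16.2 and 12.8 CPM in the wild type, with no overlap between any strain and the wild type. The gene fell by 1.1 (SE 0.173), 1.26 (SE 0.147) and 1.65 (SE 0.177) on the log2 scale in NNNN, NDNN and DNDD, with adjusted p-values of 0.00152, 0.000456 and 0.000413. Transcripts of *cdf-2*, a zinc transporter that stores zinc in the lysosome-related granules of the intestine, fell by 1.24, 1.25 and 1.18 in the same order of strains. The zinc importer family members *zipt-15* (1.53, 1.39 and 1.17) and *zipt-16* (1.28, 1.26 and 0.97, the last short of the fold cutoff) were higher. All of these calls had adjusted p-values under 0.01 in the edgeR test.

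Of 7 iron genes tested, 2 were called lower and 0 higher in each strain. Both the divalent metal transporter *smf-3* (log2 fold changes of -1.75, -2.11 and -1.82) and the ferroportin *fpn-1.1* (-1.34, -1.41 and -1.31) were called in all 3 strains. Of 8 heme-responsive *hrg* genes, 3 were called lower in NNNN, 0 in NDNN and 4 in DNDD (6.12%, 3.34% and 3.35% of all genes), and 0 were called higher. The named ones were the heme transporters *hrg-1* (log2 fold changes of -1.36, -0.84 and -1.12 in NNNN, NDNN and DNDD) and *hrg-4* (-1.35, -0.93 and -1.42), and the secreted heme-signal protein *hrg-7*, whose log2 fold changes were -1.31, -1.02 and -1.77 (in NDNN, adjusted p = 0.0121, and 0.00653 with the block, past the primary cutoff). Of the 3 copper genes listed, 1 was called lower in NNNN and 1 in DNDD.

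Among the genes of glutathione synthesis, *gcs-1* was higher in all 3 strains and *gss-1* in NNNN. The rate-limiting enzyme of glutathione synthesis, *gcs-1*, had 836, 808, 693 and 580 CPM in NNNN, 543, 614, 390 and 448 CPM in NDNN, 331, 312, 198 and 220 CPM in DNDD, and 118, 116, 95.8 and 110 CPM in the wild type. No strain overlapped the wild type, and DNDD did not overlap NNNN. The gene rose by 2.81, 2.25 and 1.26 on the log2 scale in NNNN, NDNN and DNDD (SE 0.129, 0.156 and 0.179), and its level in DNDD was lower than in NNNN by a log2 fold change of -1.45 (SE 0.185, adjusted p = 0.000139 in the edgeR test). Glutathione synthetase *gss-1* and the export pump *mrp-1* were called in NNNN, at 1.18 and 1.2. In NDNN their estimates of 0.89 and 0.95 passed the secondary cutoff, and the difference between NDNN and NNNN did not pass a cutoff for either (adjusted p = 0.64 and 0.75). Both were lower in DNDD than in NNNN, by -0.82 and -0.76, at the secondary cutoff. The phytochelatin synthase *pcs-1* had estimates of 0.63, 0.64 and 0.20 and the phytochelatin transporter *hmt-1* of -0.09, 0.06 and -0.29, and neither was called.

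**Figure D5:**
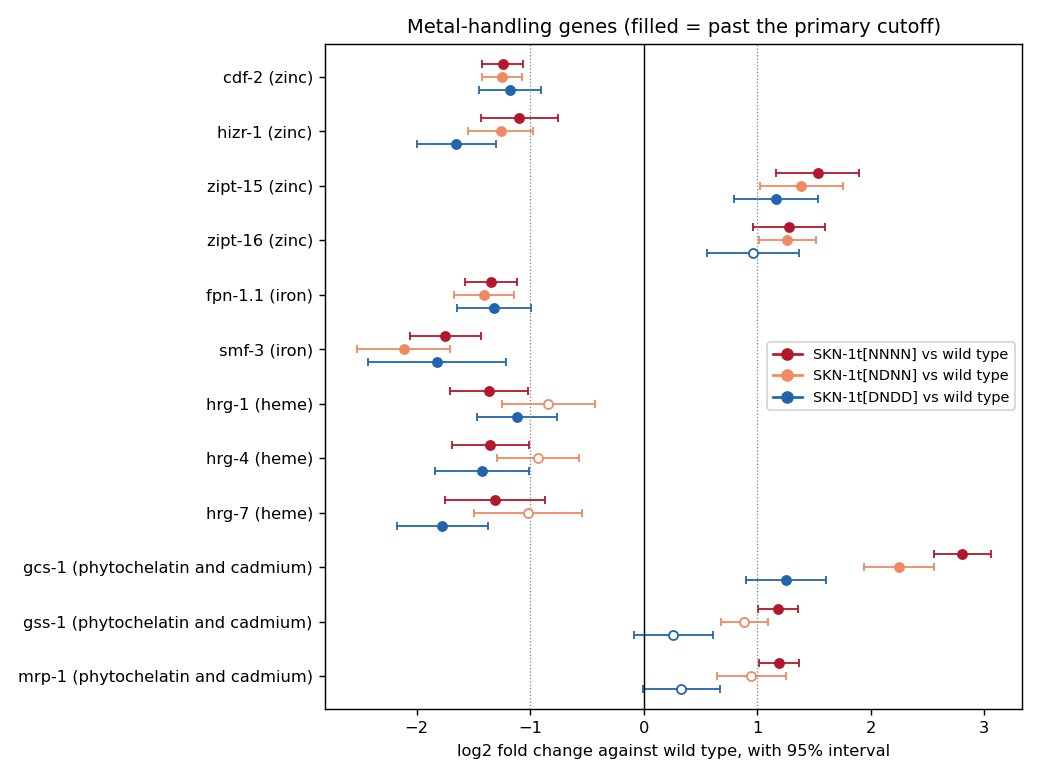
Log2 fold changes against the wild type (horizontal axis, with 95% intervals of 1.96 SE) of the 12 named metal-handling genes, grouped by list, for the 3 SKN-1t strains; filled points pass the primary cutoff. Points of the 3 phytochelatin and cadmium genes and of *zipt-15* and *zipt-16* lie right of 0, and those of the other 7 genes left of it.

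The genes whose levels followed *mtl-2* most closely over the 16 samples were sought among 14834 expressed genes. The 5 highest correlations of log2 CPM were with *C42D4.2* (r = 0.96), the cytochrome P450 gene *cyp-35A5* (0.95), the collagen gene *col-113* (0.95), *crp-1* (0.94) and *vrp-1* (0.94). After subtraction of genotype means these fell to between 0.56 and 0.76. The level of *C42D4.2* was 12.9 ± 3.80 CPM in NNNN, 27.5 ± 12.9 in NDNN, 33.5 ± 11.4 in DNDD and 95.5 ± 9.96 in the wild type. It shares the order of strains of *mtl-2*, as its choice by this correlation makes likely. For *cdr-7* the 5 were *Y51H4A.8* (r = 0.98), the Groucho corepressor *unc-37* (0.98), the innexin *inx-13* (0.98), *T01C8.2* (0.97) and *Y37E3.30* (0.97), and after subtraction of genotype means they were still between 0.94 and 0.96. Like *cdr-7*, each of its 5 was higher in replicates 1 and 2 than in replicates 3 and 4 in every transgenic strain. The points of each correlation share their libraries, depth and genotype.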

How the data were processed

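The authors aligned paired-end reads to WBcel235 with STAR 2.7.7a in 2-pass mode, checked them with FastQC 0.11.9 and deposited raw counts of reads per gene for the 16 samples, which were used as deposited. Library preparation was strand-specific. Counts were analysed in R 4.3.3 with edgeR 4.0.16, after the study's methods: filterByExpr (minimum count 10, minimum total 15), TMM scaling, the quasi-likelihood test and Benjamini-Hochberg adjustment over all genes tested. Comparisons with the wild type used a fit of the 8 samples concerned, and those between strains 1 fit of 16. CPM used TMM library sizes, and TPM the gene lengths in the deposited table. All 95% intervals, in text and figures, are 1.96 SE on either side, with the SE taken from the F statistic of the test. They take no account of the test's degrees of freedom. They are therefore approximate and too narrow, and some leave out 0 where the unadjusted p is above 0.05. Alternatives were RLE scaling, DESeq2 1.42.0, no filter, the other set of samples, the secondary cutoff, the replicate number as a block and leaving out each library. The code for the count tests was tested on simulated data.

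The labels give the 4 genotypes the same replicate numbers. Deviations of same-numbered samples from their genotype means correlated with r of 0.18 or more in all pairs of 5 comparisons. In NNNN against the wild type r was 0.064 to 0.55. A limit of r = 0.1 set this comparison apart, through replicate 3 alone (0.064). Its other pairs had r of 0.14, 0.48 and 0.55. With samples of other numbers the mean r was negative for all 24 pairs (-0.38 to -0.017). The numbers are shared by all 4 genotypes, so a pairing in the 5 comparisons would hold in NNNN against the wild type too. The origin of these correlations was not tested. The main tests took no account of the replicate number in any comparison, and only the values given with the block did. No 2 replicates agreed within counting noise. The p-values measure the spread between independently grown populations.

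The text names all members, *numr-2* beside *numr-1*, the metal-handling genes called against the wild type (the 12 with the largest change where more were called) and the 5 genes most like *mtl-2* and *cdr-7*. The members and lists were chosen with earlier results of these data known, and genes outside this rule (*lys-7*, *dod-3*, *pcs-1*, *hmt-1*, *elt-2*, *elt-7*, *daf-16*, *mdt-15*, *hsf-1*, *hrg-2* and the genes beside the cluster) were picked with their values in view. Motifs in promoters were not analysed here.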

Additional observations from a re-analysis of the deposited data

Results flagged for a closer look

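Each of the 7 tested members was examined for a sample far from the others of its genotype, which made 28 groups of 4 samples, and 1 stood apart by Dixon's test, where chance alone marks about 1 in 20 groups. It was *cdr-1* in NDNN, with 9.16 CPM in replicate 4 against 3.46, 2.54 and 3.05 CPM in replicates 1 to 3. The gap to the nearest sample made up 0.862 of the range of the group, above the 95% critical value for 4 samples. Replicate 4 was also the highest *cdr-1* sample in NNNN (6.50 CPM), in DNDD (4.85 CPM) and in the wild type (6.36 CPM).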

How the results depend on the processing

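Of the alternatives to the values of the members, 489 kept their direction and their side of the cutoff, 38 lost a call, 5 gained one and 14 turned direction, none of them a called value. The count of 3 members called in NDNN against the wild type became 1 with RLE scaling, without the filter on low counts, with the replicate block and in 1 fit of all 16 samples, and 0 to 3 with 1 library left out. It was also 3 with DESeq2, which lost *cdr-4* and gained *mtl-1*. In NNNN it was 2 in 1 fit of all 16 samples, without *mtl-1*, and 2 to 3 with 1 library left out, and in DNDD 1 to 2 with 1 library left out. For DNDD against NNNN the count of 0 became 3 at the secondary cutoff, 1 with DESeq2, 1 with the replicate block and 0 to 1 with 1 library left out. Apart from the changes given beside the results, the block changed no call of a member. The log2 fold changes that turned direction with 1 library left out ranged, for *cdr-1*, from -0.44 to 0.0193 in NNNN against the wild type, from -0.59 to 0.18 in NDNN against the wild type and from -0.46 to 0.44 in NDNN against NNNN. For *mtl-1* in DNDD against the wild type the range was -0.34 to 0.93, and for *mtl-2* in DNDD against NDNN it was -0.0780 to 0.20. For *cdr-2* the ranges were -0.0703 to 0.23 in NDNN against NNNN, -0.00583 to 0.33 in DNDD against NNNN and -0.0507 to 0.22 in DNDD against NDNN. The cause was not tested. Depth limits *cdr-3* and *mtl-1* most, and *mtl-1* had as few as 10 reads in a sample.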
